A study of Mus musculus with 78 samples.

Results

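Interleukin-1 beta (IL-1beta), an inflammatory cytokine of injured and arthritic joints, changed many genes of engineered cartilage to a different extent after 4 h than after 72 h. The measure here was the effect of IL-1beta at 72 h minus its effect at 4 h, where an effect is the log2 fold change of IL-1beta libraries against control libraries of the same time. Of the 78 samples in the series, 39 of them mRNA libraries, 12 entered this contrast. Cartilage given 1 ng/mL IL-1beta and untreated control cartilage were each collected after 4 h and after 72 h, with 3 libraries (replicates a, b and c) in every group. All 4 groups were the same cartilage tissue, made in culture from mouse induced pluripotent stem cells, and the labels name no genotype, strain, sex or second agent. Such tissue is grown without the synovium, bone, vessels and immune system of a joint. The labels do not say whether replicates were separate cultures, so each p-value may rest on technical spread among libraries alone.

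IL-1beta binds its receptor on chondrocytes and activates the transcription factor NF-kappaB and the MAP kinases within minutes. NF-kappaB turns on cytokines, chemokines and adhesion molecules together with its own inhibitors, so many early transcripts fade while the cytokine is still present. Longer exposure is known to raise proteases that cut collagen and aggrecan, and to silence the genes of the cartilage matrix. C/EBP factors, which are themselves induced by cytokines, drive the acute-phase genes best known from liver.

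The 12 libraries held 13919485 to 68655350 counts. Libraries of one group correlated at 0.980 or more over genes. The share of counts on Col2a1, the type II collagen gene, was 8.085 to 8.351% in controls at 4 h, 8.06 to 10.6% with IL-1beta at 4 h, 5.163 to 6.41% in controls at 72 h and 0.898 to 1.022% with IL-1beta at 72 h. The 10.6% was that of IL-1beta 4 h replicate a, which stood apart from the other 2 of its group. Transcripts of 8 chondrocyte identity markers summed to 79422 CPM or more in each library of the 3 other groups and to 16040 to 17571 CPM with IL-1beta at 72 h, so chondrocyte transcripts were present in all groups and lowest in the last. Marker sums are CPM of the library total, without TMM factors, while CPM of single genes are scaled with them. In bulk tissue, fewer cells of a type and less RNA per cell cannot be told apart.

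The effect differed between the times for 5775 of 18857 genes tested (30.6%) at an adjusted p under 0.05 from edgeR's quasi-likelihood test. It was higher at 72 h for 2952 genes (15.7%) and lower for 2823 (15%). With library totals in place of TMM scaling the split was 3923 higher and 1983 lower, and the median difference of all genes moved from 0.01 to 0.12 on the log2 scale. The difference was at least 2-fold for 1911 genes (10.1%), of which 1461 had the larger effect at 72 h and 450 at 4 h. Of the 3263 genes called at both times, 2445 moved the same way and 818 moved in opposite directions. Against control of the same time, IL-1beta changed 6159 genes at 4 h (32.7%, with 15.5% higher and 17.2% lower), 5573 at 12 h (29.6%, with 14.5% higher and 15% lower), 6142 at 24 h (32.6%, with 17% higher and 15.6% lower) and 7336 at 72 h (38.9%, with 19.3% higher and 19.7% lower). Untreated tissue changed as well: 7349 genes (39%, 19.5% in either direction) differed between control at 72 h and control at 4 h. In treated tissue 11101 genes (58.9%) differed between the times, 31.1% of all genes being higher at 72 h and 27.7% lower. For reading statements on overlap below, all 3 treated libraries lay above all 3 controls in 19.6% of genes at 4 h, 18.8% at 12 h, 23.5% at 24 h and 25.7% at 72 h, and below them in 22.5%, 20.2%, 22.7% and 25.5%.

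Genes with an at least 2-fold difference were sorted by their 2 effects. A transient effect was called at 4 h with at least 2-fold change and was under 0.5 of that size on the log2 scale at 72 h. A late effect was the mirror image, called at 72 h with at least 2-fold change and under 0.5 of that size at 4 h, where it could already be called. Reversed genes were called at both times in opposite directions with at least 0.5 log2 each. These rules gave 94 genes with a transient rise (0.498% of genes tested), 109 with a transient fall (0.578%), 468 with a late rise (2.48%) and 609 with a late fall (3.23%). A further 83 genes turned from higher to lower (0.440%) and 139 from lower to higher (0.737%). The same direction at both times held for 27 strengthened (0.143%) and 6 weakened genes (0.0318%), and the remaining 376 met no rule, 300 of them with effects under 1 log2 at both times.

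**Figure D1:**
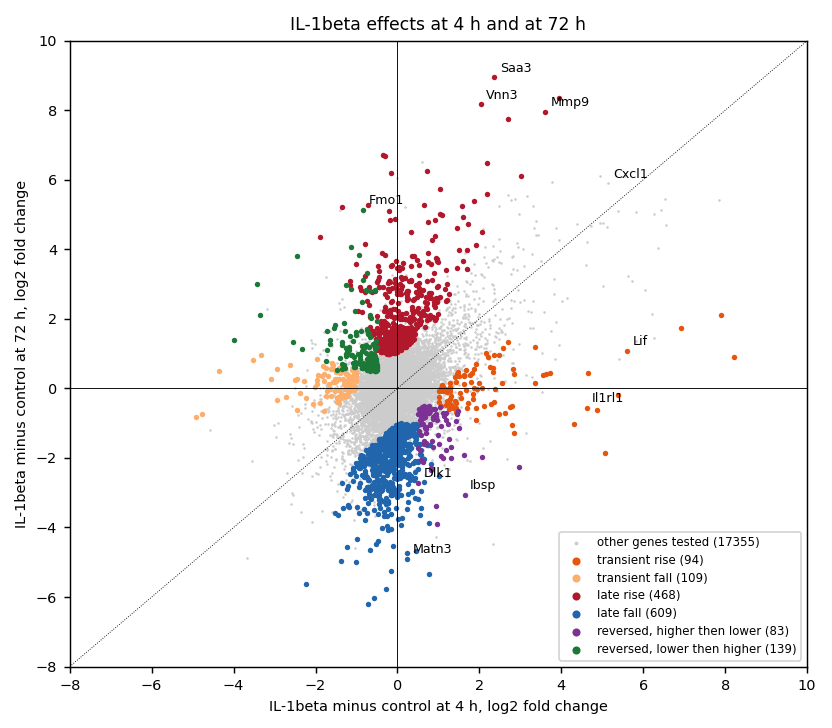
Each point is 1 of 18857 genes, placed by its IL-1beta effect at 4 h (x axis) and at 72 h (y axis), both as log2 fold change against control of the same time. Late genes line the vertical axis (468 up, 609 down), transient genes the horizontal axis, and the 222 reversed genes sit at the upper left and lower right.

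The libraries of 12 h and 24 h took no part in the sorting and show the course between the ends. Transient rises faded in steps: 66 of the 94 were still called higher at 12 h (70.2%, against 14.5% of all genes) and 52 at 24 h (55.3%, against 17%). Of the 468 late rises, 146 were called higher at 12 h (31.2%) and 306 at 24 h (65.4%), while the 76 called lower at 12 h (16.2%) were near the 15% of all genes. Of the late falls, 243 of 609 were called lower at 12 h (39.9%, against 15%) and 440 at 24 h (72.2%, against 15.6% of all genes). Of the 109 transient falls, 42 were called lower at 12 h (38.5%) and 39 at 24 h (35.8%), with median effects of -0.64 and -0.44. For the 83 genes that turned from higher to lower, 41 were still higher at 12 h (49.4%), and at 24 h 14 were higher and 17 lower (16.9% and 20.5%, near the 17% and 15.6% of all genes). The 139 that turned the other way had 61 lower at 12 h (43.9%), and at 24 h 34 were higher and 23 lower (24.5% and 16.5%).

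**Figure D2:**
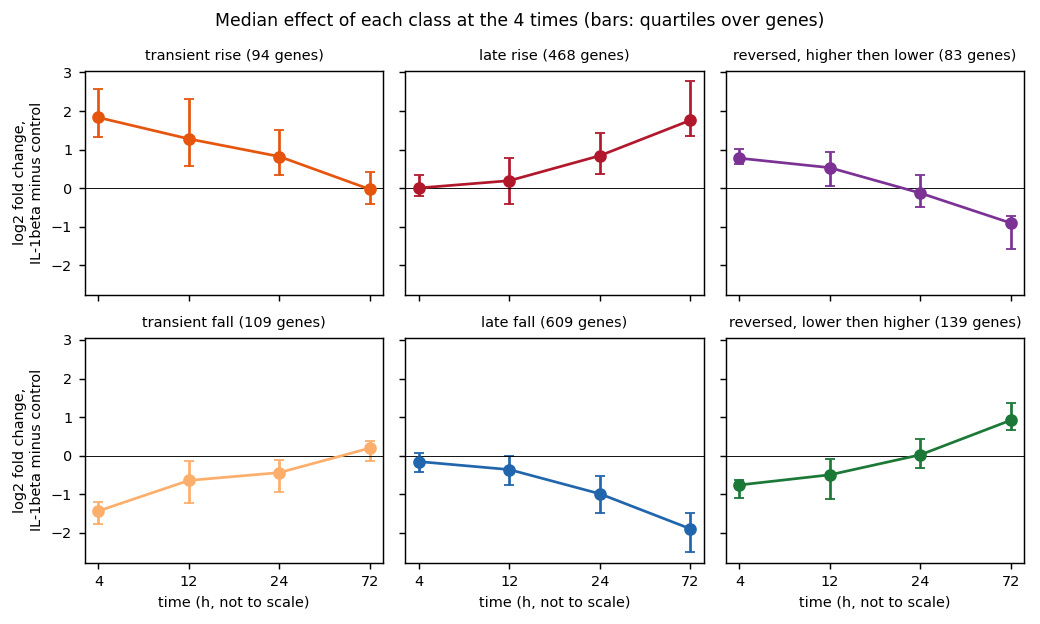
Points are the median IL-1beta effect (log2 fold change against control of the same time) of the genes of each class at 4, 12, 24 and 72 h, and bars the quartiles over genes. The 12 h and 24 h values, which the classes did not use, lie between those of 4 h and 72 h for the medians of each of the 6 classes shown, as in the late rises, whose medians were 0.19 at 12 h and 0.84 at 24 h.

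The transient rises included receptors, cytokines and adhesion molecules of the first inflammatory wave. Il1rl1 encodes ST2, the receptor of interleukin-33. It stood at 3.5, 3.17 and 3.37 CPM in the 4 h controls and 77.9, 99.4 and 69.5 with IL-1beta, and at 72 h at 4.01, 6.54 and 4.89 in controls and 4.58, 2.96 and 3.21 with IL-1beta. The groups were far apart at 4 h and overlapped at 72 h. Its effect was 4.62 ± 0.21 (log2, standard error) at 4 h and -0.56 ± 0.28 at 72 h, a difference of -5.18 ± 0.35 (edgeR adjusted p 8.7e-14), and at 12 h it had still been 5.51. Lif, an IL-6 family cytokine, read 244, 174 and 115 CPM with IL-1beta at 4 h against 3.34, 4.70 and 3.06 in controls, and 5.78, 6.15 and 6.13 against 2.89, 2.96 and 2.60 at 72 h. The treated libraries stayed above the controls at both times, but the effect shrank from 5.61 ± 0.24 to 1.09 ± 0.32.

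Icam1, the leukocyte adhesion molecule, rose from 49.6, 48.9 and 49.1 CPM in controls to 651, 666 and 517 at 4 h. At 72 h it was 66.8, 65.3 and 68.5 in controls and 96.2, 85.2 and 87.4 with IL-1beta, a small rise without overlap. The difference between the effects was -3.21 ± 0.14 (edgeR adjusted p 1.3e-18). Ptgs2, the inducible cyclooxygenase of prostaglandin synthesis, went from 88.1, 132 and 114 CPM to 590, 595 and 437 at 4 h, and at 72 h it was lower with IL-1beta (46.6, 44.8 and 49.8) than in controls (51.6, 70.0 and 71.9). Its effects were 2.28 ± 0.15 and -0.45 ± 0.15. Csf1, the macrophage growth factor, had effects of 2.06 ± 0.12 at 4 h, 3.31 at 12 h and 0.00 ± 0.12 at 72 h. Mmp10, a protease that activates collagenases, had 3.37 ± 0.29 at 4 h and 0.16 ± 0.39 at 72 h, and Adamts1, a proteoglycan-cutting protease, 1.64 ± 0.12, -0.50 at 12 h and 0.14 ± 0.12.

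Some early genes were nearly silent without the cytokine. Slc26a9, an anion channel, had 1 count in the 3 controls together at 4 h and 383 with IL-1beta, a ratio of 421 (exact 95% interval 75.2 to 16683, counting error only). Nlrp3, the sensor of the inflammasome, had 2 and 555 counts, a ratio of 305 (84.1 to 2527). At 72 h Nlrp3 had 6 and 29 counts, and its effect remained called at 2.12 ± 0.61 (edgeR adjusted p 0.0053). Slc6a14, an amino acid transporter, read 11.1, 16.9 and 14.5 CPM with IL-1beta at 4 h and 0.48, 0.23 and 0.39 at 72 h. Its difference of -5.18 rested on 1 control: without control 72 h replicate a, the only 72 h control with a count, it was -0.90 (edgeR adjusted p 0.84) and was not called.

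Other genes of the first wave did not fade. Nfkbia encodes IkappaB-alpha, the inhibitor that NF-kappaB itself induces. It read 187, 180 and 168 CPM with IL-1beta at 4 h and 179, 178 and 172 at 72 h, against 37.2, 35.7 and 32.4 and 27.6, 32.3 and 33.4 in controls. The treated libraries lay on one level throughout, and the effects of 2.34 ± 0.09 and 2.5 ± 0.10 differed by 0.16 ± 0.13 (edgeR adjusted p 0.38). Il6 had effects of 5.82 ± 0.22 and 5.08 ± 0.26 (difference -0.74 ± 0.42, not called), and Nos2, the inducible nitric oxide synthase, 5.55 ± 0.23 and 6.12 ± 0.28 (difference 0.57 ± 0.36, not called). Without the low-count filter both were called, at -0.72 and 0.59. For Nos2 the treated level fell from 847, 824 and 711 CPM to 209, 195 and 192, while the controls fell from 12.0, 25.4 and 14.2 to 2.54, 2.73 and 3.34. Cxcl1, a neutrophil attractant, was slightly higher at 72 h, with 5.14 ± 0.18 and 5.90 ± 0.19 (edgeR adjusted p 0.013).

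Over the lists, 8 of 21 NF-kappaB subunits, inhibitors and targets had a lower effect at 72 h and 3 a higher one (background 15% and 15.7% of all genes), with a median difference of -0.29 against 0.01 for all genes. The 3 that were higher were Nfkbiz, an inducible IkappaB protein (1.52 ± 0.13), Sod2, the mitochondrial superoxide dismutase (1.18 ± 0.12), and Bcl3. The count of 8 fell to 5 without IL-1beta 4 h replicate b, without IL-1beta 72 h replicate b, or with library totals. Of 13 cytokines and colony-stimulating factors, 7 had a lower effect at 72 h, and only Tnfsf11, the osteoclast factor RANKL, a higher one (2.20 ± 0.34). Of 15 prostaglandin and nitric oxide genes, 5 were lower and 0 higher, among them Ptges, the prostaglandin E synthase, whose effect weakened from 3.31 ± 0.10 to 1.74 ± 0.09, and Ptgis, the prostacyclin synthase, which was at -0.34 ± 0.08 and then -3.25 ± 0.09.

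Promoters of Icam1 and Nfkbia are shown because the pair carries the same motif and took different courses. They are the 250 bases before the start of each gene from RefSeq (GRCm38.p6), at chr9:21015690-21015939 (plus strand) and chr12:55492648-55492897 (minus strand), with matches to the NF-kappaB motif in capitals, searched as GGANTTTCC and GGGNTTTCC on both strands.
Icam1: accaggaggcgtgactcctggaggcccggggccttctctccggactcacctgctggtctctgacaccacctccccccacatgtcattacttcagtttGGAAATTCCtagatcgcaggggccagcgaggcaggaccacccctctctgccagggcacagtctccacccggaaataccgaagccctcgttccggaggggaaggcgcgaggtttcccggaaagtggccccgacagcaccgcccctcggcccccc
Nfkbia: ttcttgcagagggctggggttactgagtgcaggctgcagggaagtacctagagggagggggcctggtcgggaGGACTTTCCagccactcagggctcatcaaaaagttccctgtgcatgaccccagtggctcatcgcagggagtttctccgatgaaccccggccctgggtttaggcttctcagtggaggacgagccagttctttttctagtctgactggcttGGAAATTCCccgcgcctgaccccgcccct
Icam1 holds 1 match, which begins 153 bases before the start, and Nfkbia holds 2, which begin 178 and 29 bases before it. Shares of promoters with a motif were counted over the whole promoter window, which adds a short stretch after the start that is not printed. The motif was in 9 of 17 promoters of the NF-kappaB list (52.9%), in 6 of 58 of the transient rises (10.3%) and in 3.16% of the 11853 tested genes with a promoter. A match of letters is a description and does not show that a factor binds there.

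**Figure D3:**
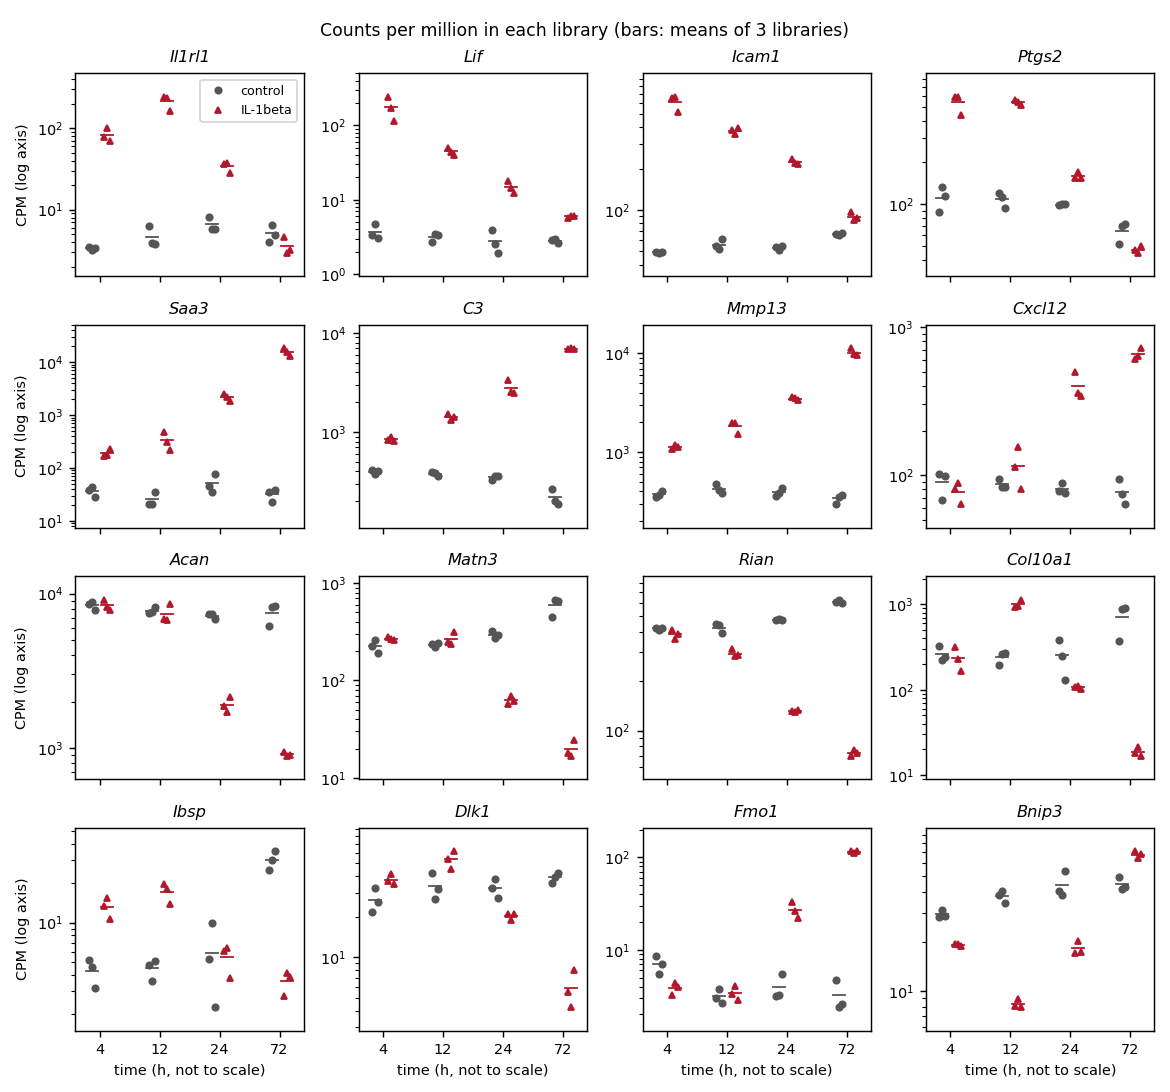
Points are CPM of each library on a log scale at 4, 12, 24 and 72 h for 16 genes, in controls and with IL-1beta, and bars are the means of 3 libraries. Il1rl1, Lif, Icam1 and Ptgs2 part early and lie much closer by 72 h. At that time Lif and Icam1 are still above the controls and Ptgs2 is below them. Saa3, C3 and Mmp13 part ever further, and Acan and Matn3 lie below the controls at 24 h and 72 h. Rian lies slightly below them at 4 h and further below at each later time.

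The 5 largest late rises among genes with a mean of at least 1 CPM were Slc36a2, Saa3, Wfdc21, Vnn3 and Mmp8. Slc36a2, an amino acid transporter, read 0.287, 0.295 and 0.0784 CPM with IL-1beta at 4 h and 11.6, 10.4 and 12.3 at 72 h, with controls of 0.464 or less at both times (difference 7.06 ± 0.88). Wfdc21, a small secreted protein, read 0.459, 0.753 and 1.25 CPM with IL-1beta at 4 h and 39.5, 31.4 and 39.3 at 72 h (difference 6.34 ± 0.54). For both, the groups overlapped at 4 h and were separate at 72 h.

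Acute-phase and complement genes, whose secreted products are best known from inflamed liver, made up 16 of the 468 late rises. Of 19 on the list, 18 had a higher effect at 72 h and 0 a lower one, against 15.7% and 15% of all genes. The median difference was 3.89. The median effect itself was 0.72 at 4 h, 0.84 at 12 h, 2.69 at 24 h and 4.79 at 72 h. Saa3, a serum amyloid A protein made outside the liver, was at 39.1, 44.6 and 28.7 CPM in 4 h controls and 170, 179 and 232 with IL-1beta. By 72 h it was at 34.7, 22.7 and 38.6 in controls and 18368, 15647 and 13248 with IL-1beta. The groups were separate at both times, and the effect went from 2.37 ± 0.34 to 8.95 ± 0.44 (difference 6.58 ± 0.50, edgeR adjusted p 1.1e-12). Saa3 was thus already induced at 4 h, and its late class rests on size. Saa1 and Saa2 differed by 5.05 ± 0.56 and 4.40 ± 0.69, but their near-identical sequences leave the division of reads between them uncertain.

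Hp encodes haptoglobin, which binds free hemoglobin. It stood at 973, 869 and 890 CPM in 4 h controls and 928, 1141 and 1389 with IL-1beta, which overlap. At 72 h it read 950, 600 and 786 against 19921, 17403 and 15961, and the difference between the effects was 4.17 ± 0.28. C3, the central complement protein, went from 413, 376 and 405 CPM against 833, 896 and 807 at 4 h to 269, 202 and 187 against 6830, 7025 and 6848 at 72 h (difference 3.89 ± 0.21, edgeR adjusted p 3.8e-16). Its treated libraries were above the controls at both times. C1ra and C1s1, proteases of the first complement component, had effects of 0.12 and -0.05 at 4 h and of 2.93 and 2.91 at 72 h.

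Lcn2, an iron-scavenging lipocalin, moved in treated and control tissue alike, in opposite directions. With IL-1beta it rose from 1544, 2550 and 2808 to 9457, 9244 and 9255 CPM, and in controls it fell from 1308, 1623 and 1162 to 406, 324 and 278. The groups overlapped at 4 h and were far apart at 72 h. The difference of 4.04 ± 0.33 thus joined a rise of 2.02 in treated and a fall of 2.02 in control libraries. Orm1 and Orm2, the orosomucoids, differed by 4.95 ± 0.40 and 3.93 ± 0.54, and Vnn1 and Vnn3, the pantetheinases, by 3.44 ± 0.21 and 6.15 ± 0.42. Vnn3 read 2.18, 3.47 and 3.84 CPM with IL-1beta at 4 h and 135, 125 and 121 at 72 h, against controls of 0.947 or less at both times.

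The promoters of 4 of these genes are printed because a C/EBP motif, searched as TTGCNNAA on both strands, was found in 11 of the 12 promoters on the acute-phase list (91.7%) and in 8.54% of all tested genes with a promoter. The exception was Cp, ceruloplasmin. Motif shares are again over the whole promoter window, with the short stretch after the start. Matches are in capitals within the 250 bases before the transcript start of the RefSeq promoter table, which for Saa3 lies within the annotated span of the gene (46711998 to 46719615): Saa3 at chr7:46715677-46715926 (minus strand), Orm2 at chr4:63362199-63362448 (plus), Vnn3 at chr10:23851212-23851461 (plus) and C3 at chr17:57228137-57228386 (minus).
Saa3: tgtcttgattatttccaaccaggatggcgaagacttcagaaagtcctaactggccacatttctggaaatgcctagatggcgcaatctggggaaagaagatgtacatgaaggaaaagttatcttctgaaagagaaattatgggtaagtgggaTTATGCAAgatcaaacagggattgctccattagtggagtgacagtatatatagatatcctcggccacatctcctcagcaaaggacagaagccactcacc
Orm2: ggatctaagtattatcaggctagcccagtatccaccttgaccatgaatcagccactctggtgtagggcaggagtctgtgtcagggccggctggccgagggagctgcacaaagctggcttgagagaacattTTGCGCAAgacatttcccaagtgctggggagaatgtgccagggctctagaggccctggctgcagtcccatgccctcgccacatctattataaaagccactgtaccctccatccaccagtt
Vnn3: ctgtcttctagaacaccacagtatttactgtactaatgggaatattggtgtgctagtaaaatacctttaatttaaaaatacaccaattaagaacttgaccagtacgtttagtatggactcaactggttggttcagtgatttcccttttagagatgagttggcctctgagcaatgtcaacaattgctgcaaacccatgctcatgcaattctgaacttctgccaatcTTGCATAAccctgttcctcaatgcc
C3: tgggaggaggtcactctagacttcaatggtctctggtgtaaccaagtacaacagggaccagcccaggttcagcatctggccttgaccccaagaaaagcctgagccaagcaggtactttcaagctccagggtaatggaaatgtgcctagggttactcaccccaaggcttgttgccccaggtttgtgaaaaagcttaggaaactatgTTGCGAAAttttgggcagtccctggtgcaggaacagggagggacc
The matches begin 99 bases before the start in Saa3, 120 in Orm2, 25 in Vnn3 and 45 in C3. Over the whole late rise the motif was in 46 of 293 promoters (15.7%), against 19 of 382 in the late fall (4.97%) and 12 of 58 in the transient rise (20.7%). Whether C/EBP factors act at these places was not tested.

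Matrix-degrading proteases split by time. Of 22 on the list, 9 had a higher effect at 72 h and 6 a lower one, against 15.7% and 15% of all genes. Mmp3, stromelysin 1, read 2981, 2942 and 2989 CPM with IL-1beta at 4 h against 342, 369 and 392 in controls, and 19251, 18426 and 18230 against 289, 260 and 254 at 72 h. The difference was 3.11 ± 0.18. Mmp13, the main collagenase of cartilage breakdown, went from 1070, 1192 and 1138 to 11319, 9767 and 9562 CPM with IL-1beta, while the controls stayed between 296 and 402 (difference 3.31 ± 0.20, edgeR adjusted p 3.8e-15). Neither gene had overlapping groups at either time.

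Mmp9, a gelatinase, was under 0.5 CPM in each control and rose from 2.35, 2.49 and 1.88 to 95.9, 101 and 89.8 with IL-1beta. Mmp8, the neutrophil collagenase, was at 0.34, 0.20 and 0.39 CPM with IL-1beta at 4 h, overlapping the controls of 0.667, 0.219 and 0.309, and at 6.32, 6.52 and 6.0 at 72 h, with controls of 0.20, 0.09 and 0.19. Its difference was 5.99 ± 0.78. The aggrecanases Adamts4 and Adamts5 were induced at both times with no called difference (0.46 ± 0.26 and 0.41 ± 0.23), though both were called without the low-count filter (0.49 and 0.43). Adamts5 was called at 0.64 without control 72 h replicate a, with an edgeR adjusted p of 0.049.

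Of 16 chemokines tested, 12 were called higher than control at 4 h and 14 at 72 h, against 15.5% and 19.3% of all genes. The effect was higher at 72 h for 7 and lower for 1, Cxcl16, against 15.7% and 15% of all genes. The count of 1 became 4 with DESeq2 or with only the 12 libraries, and 5 without the low-count filter. With all 39 mRNA columns in the fit the 7 became 4. A further 3 members were not tested. Cxcl12, which retains CXCR4-bearing cells, read 80.4, 87.9 and 63.6 CPM with IL-1beta at 4 h against 101, 68.1 and 99.3 in controls, and 608, 635 and 721 against 93.5, 74.9 and 63.7 at 72 h. The groups overlapped at 4 h and were separate at 72 h (difference 3.28 ± 0.40). Ccl8, a monocyte attractant, had effects of -0.02 ± 0.24, 0.18 at 12 h, 0.48 at 24 h and 3.46 ± 0.24 at 72 h. By contrast Ccl2, the classical monocyte attractant, stayed induced (4.62 ± 0.20 and 4.22 ± 0.20, difference -0.39 ± 0.26, called only without the low-count filter).

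Fth1, the heavy chain of the iron store ferritin, read 1250, 1604 and 1969 CPM with IL-1beta at 4 h and 5007, 4758 and 4390 at 72 h, with a difference of 2.22 ± 0.18. B2m and H2-K1, the 2 chains of a class I histocompatibility molecule, had effects at 4 h without a call (-0.02 ± 0.13 and 0.25 ± 0.12) and of 1.28 ± 0.13 and 1.39 ± 0.12 at 72 h. Of 12 class I presentation genes 4 had a higher effect at 72 h and 0 a lower one, against 15.7% and 15% of all genes. The 4 became 7 without the low-count filter and 1 with all 39 mRNA columns in the fit. Against control, 7 were called higher at 4 h (median effect 0.40) and all 12 at 72 h, against 15.5% and 19.3% of all genes. H2 genes resemble each other, which makes the division of reads between them uncertain.

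The late fall held the cartilage matrix. Of 23 matrix genes tested, 20 had a lower effect at 72 h (against 15% of all genes), and the median difference was -2.83. The median effect was 0.06 at 4 h, -0.19 at 12 h, -1.13 at 24 h and -2.54 at 72 h. Acan, the core protein of aggrecan, read 9149, 8141 and 7858 CPM with IL-1beta at 4 h and 8572, 8852 and 7808 in controls, with full overlap. At 72 h it was 940, 892 and 898 against 6155, 8160 and 8265. The effects of 0.00 ± 0.13 and -3.05 ± 0.14 differed by -3.04 ± 0.19 (edgeR adjusted p 1.7e-14), and the 12 h effect was still -0.07.

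Col2a1, the major fibril collagen, read 85096, 88873 and 86070 CPM in 4 h controls and 122790, 92334 and 87930 with IL-1beta, and 49641, 49893 and 64449 against 9753, 9724 and 8644 at 72 h. The highest treated library at 4 h, replicate a, was the one that stood apart above. Its difference was -2.77 ± 0.24. Matn3, a matrilin that links collagen and aggrecan, went from 278, 265 and 263 CPM with IL-1beta at 4 h to 18.1, 16.9 and 24.4 at 72 h while the controls rose from 227, 262 and 192 to 453, 677 and 648 (difference -5.14 ± 0.25). Matn1 differed by -5.49 ± 0.44, and here the controls did most of the moving: they rose by 3.96 log2, from 7.78, 4.85 and 5.87 to 89.1, 85.0 and 121 CPM, while treated tissue went from 5.16, 5.6 and 4.08 to 1.69, 1.80 and 1.84.

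Col9a1, a collagen on the fibril surface, differed by -3.02 ± 0.21, Comp, a fibril-binding glycoprotein, by -1.75 ± 0.18, and Hapln1, the link protein of aggrecan, by -1.63 ± 0.16. Cilp, a protein of the middle cartilage zones, was the one member with a higher effect at 72 h (0.45 ± 0.17, edgeR adjusted p 0.04), and leaving out any 1 of 8 of the 12 libraries ended that call. Its effect was -1.22 at 12 h. Omd, a small proteoglycan that binds mineral, read 64.4, 135 and 105 CPM with IL-1beta at 4 h and 25.3, 24.4 and 23.3 at 72 h, against 265, 174 and 178 and then 802, 831 and 686 in controls (difference -3.98 ± 0.36).

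Among chondrocyte regulators, Sox9, the master factor of the lineage, had effects of -0.22 ± 0.10 and -1.48 ± 0.10, a difference of -1.25 ± 0.14, while its partner Sox5 had 0.31 ± 0.06 and -0.46 ± 0.07. Runx1 moved the other way (1.36 ± 0.12). Of 15 regulators 2 had a higher and 5 a lower effect at 72 h, against 15.7% and 15% of all genes. The 2 were thus near the share of all genes. With all 39 mRNA columns in the fit the counts were 0 and 3. Frzb, a secreted WNT antagonist of cartilage, read 167, 202 and 146 CPM with IL-1beta at 4 h and 116, 138 and 142 at 72 h, while controls rose from 244, 228 and 231 to 1298, 1238 and 1458. The difference of -2.89 ± 0.19 therefore came with little movement in treated tissue (-0.38 log2).

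**Figure D4:**
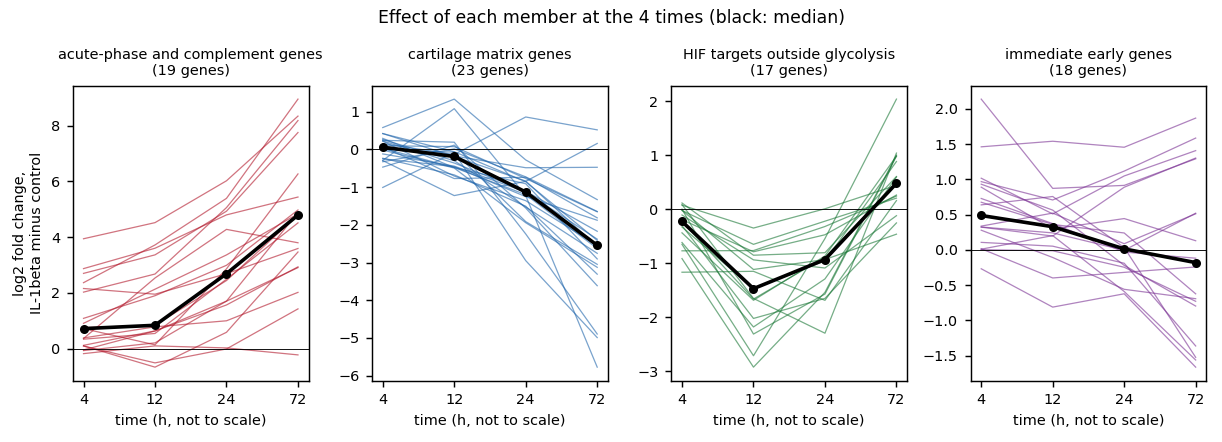
Lines are the IL-1beta effect (log2 fold change against control of the same time) of each member of 4 lists at 4, 12, 24 and 72 h, and the black line is the median. Acute-phase genes climbed to a median of 4.79, matrix genes fell to -2.54, HIF targets dipped to -1.47 at 12 h and ended at 0.48, and immediate early genes went from 0.49 to -0.18.

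Col10a1, the collagen of hypertrophic chondrocytes, read 318, 229 and 166 CPM with IL-1beta at 4 h against 329, 223 and 245 in controls. It then rose to 936, 962 and 1137 at 12 h against 194, 260 and 269, and fell to 18.1, 21.1 and 16.9 at 72 h against 371, 874 and 917. The groups overlapped at 4 h, were high with IL-1beta at 12 h and low at 72 h, with effects of -0.16 ± 0.34, 2.07 ± 0.35 and -5.27 ± 0.42. Dmp1, a matrix protein of mineralizing cells, had effects of 0.22 ± 0.15 and -4.75 ± 0.34 (difference -4.97 ± 0.39). Against control at 12 h, 4 of 13 hypertrophy and mineralization genes were called higher and 4 lower (14.5% and 15% of all genes). Of the 13, 7 had a lower effect at 72 h and 3 a higher one, against 15% and 15.7% of all genes. One of the 3 was Alpl, the alkaline phosphatase of bone and cartilage mineralization, with 3.79, 4.76 and 5.19 CPM with IL-1beta at 72 h against 1.03, 0.80 and 1.30 in controls (difference 1.79 ± 0.45).

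Tnni2, a troponin known from fast muscle, was in the late fall as well, with 33.8, 44.4 and 30.2 CPM in 72 h controls and 0.36, 0.28 and 0.77 with IL-1beta (difference -5.48 ± 0.46). Summed levels of 7 skeletal muscle markers were 12.7 to 16.6 CPM in 72 h controls and 4.68 to 5.82 with IL-1beta, and 10.2 to 12.3 and 8.42 to 9.34 at 4 h. Nearly all of that sum was Tnnt3, itself a troponin gene, and Des, the only 2 of the 7 that passed the low-count filter. At 72 h Tnnt3 read 7.4 to 9.0 CPM in controls and 1.4 to 1.6 with IL-1beta, and Des 4.9 to 7.3 and 2.8 to 4.1. Myod1 was at 0 in 4 h libraries and 72 h controls. The part of muscle cells in the fall of Tnni2 was not tested.

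Most imprinted growth genes had a lower effect at 72 h. Of 14 tested, 12 had a lower effect at 72 h (against 15% of all genes), with a median difference of -1.89. In controls 8 were called higher at 72 h than at 4 h and 1 lower (median 0.51), against 19.5% of all genes in each direction. In treated tissue 2 were called higher and 11 lower (median -1.49). The 1 member with a higher effect at 72 h was Igf2r, the receptor that clears IGF2 (0.26 ± 0.09). Its call was lost when any 1 of 8 libraries was left out. Rian, a long noncoding RNA that hosts small nucleolar RNAs, read 410, 361 and 391 CPM with IL-1beta at 4 h against 426, 414 and 426 in controls. At 72 h it read 70.3, 76.1 and 73.1 against 610, 631 and 600. Treated and control libraries did not overlap at either time, but the effect at 4 h was not called (-0.12 ± 0.06), and that at 72 h was -3.07 ± 0.07 (difference -2.94 ± 0.09, edgeR adjusted p 2.0e-22). Its neighbours in the Dlk1-Dio3 domain of chromosome 12, Meg3 (109540996 to 109571729) and Mirg (109734981 to 109749458), differed by -3.10 ± 0.18 and -2.75 ± 0.14. Dlk1 (109452485 to 109463336), a protein of the Notch ligand family that is expressed from the other parental allele, differed by -3.22 ± 0.28.

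On chromosome 7, H19 (142575530 to 142578146), a noncoding RNA, and Igf2 (142650768 to 142666816), a growth factor, are neighbours under one imprinting control. H19 read 418, 272 and 257 CPM with IL-1beta at 4 h and 52.9, 49.6 and 54.3 at 72 h, and its controls stayed between 285 and 335 (difference -2.64 ± 0.24). Igf2 differed by -1.17 ± 0.14. Mest and Plagl1, a hydrolase-like protein and a zinc finger factor, differed by -2.04 ± 0.18 and -1.33 ± 0.14. Coordinates are those of RefSeq on GRCm38.p6, the patch release of the build mm10 named for the deposited counts.

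Amino acid, sterol and proliferation genes mostly had a lower effect at 72 h, where the share of all genes was 15%. The rule for a late fall was met by 5 of 17, 4 of 20 and 6 of 23, against 3.23% of all genes. Of 17 targets of ATF4, the factor of the amino acid stress response, 12 had a lower effect at 72 h and 2 a higher one. Mthfd2, a mitochondrial folate enzyme, read 56.9, 62.8 and 67.6 CPM with IL-1beta at 4 h, among its controls, and 16.9, 18.4 and 16.2 at 72 h against 41.5, 53.7 and 54.1 (difference -1.54 ± 0.13). Phgdh, the first enzyme of serine synthesis, was one of the 2 exceptions (1.35 ± 0.14). Of 20 sterol synthesis genes 12 were lower and 0 higher, including Insig1, a sterol sensor partner (-1.87 ± 0.15). At 4 h 9 of them were already called lower than control, against 17.2% of all genes. Of 23 cell cycle genes 14 were lower and 2 higher, and the 2 became 0 or 1 when any 1 of the 12 libraries was left out. Top2a, a topoisomerase of dividing cells, had effects of 0.06 ± 0.12 and -1.14 ± 0.13, and Mki67, the Ki-67 antigen, -0.05 ± 0.15 and -1.18 ± 0.17.

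Reversed genes crossed the control level between the times. Ibsp, integrin-binding sialoprotein of mineralizing tissue, read 13.5, 15.5 and 10.6 CPM with IL-1beta at 4 h against 5.15, 4.59 and 3.15 in controls, and 2.77, 4.11 and 3.86 against 25.2, 30.3 and 35.3 at 72 h. The groups were separate both times and in opposite order, with effects of 1.64 ± 0.27 and -3.06 ± 0.29. Controls alone rose by 2.80 log2. Dlk1 went from 36.9, 41.4 and 35 against 21.9, 33.0 and 25.7 at 4 h to 5.48, 4.25 and 8.06 against 35.8, 39.7 and 42.4 at 72 h. Its early rise was small (0.51 ± 0.18, edgeR adjusted p 0.028) beside the late fall (-2.71 ± 0.22).

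The turn from higher to lower held 3 of 18 immediate early genes, 2 of 14 MAP kinase feedback genes and 1 of 11 STAT3 and SOCS genes. That class held 0.440% of all genes tested. In controls, all 18 immediate early genes were called lower at 72 h than at 4 h (median -1.12). So were 13 of the MAP kinase feedback genes (median -0.71), against 19.5% of all genes. The STAT3 and SOCS list had 6 lower and 1 higher in controls. Of the 18 immediate early genes 11 had a lower effect at 72 h and 3 a higher one (Ier3, Fosl2 and Junb), against 15% and 15.7% of all genes. Junb lost its call without control 4 h replicate b or IL-1beta 4 h replicate c. Atf3, a stress-induced factor, read 47.2, 43.5 and 39.2 CPM with IL-1beta at 4 h against 26.8, 30.7 and 26.3, and 5.48, 7.35 and 8.44 against 20.4, 19.3 and 22.3 at 72 h (difference -2.16 ± 0.18). Egr1, a growth-factor response factor, had effects of 0.68 ± 0.15 and -0.62 ± 0.19. Dusp5, a phosphatase that switches off ERK, had 1.48 ± 0.17 and -0.65 ± 0.24, and Socs2, an inhibitor of cytokine and growth hormone signalling, 0.87 ± 0.11 and -1.67 ± 0.15. Socs3, the inhibitor of IL-6 signalling, did not turn: its effects were 1.74 ± 0.11 and 2.08 ± 0.11 (difference 0.34 ± 0.15, not called, but called at 0.45 with library totals, 0.36 without the filter and 0.29 with only the 12 libraries).

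In the other direction, Fmo1, a flavin monooxygenase, read 3.27, 4.36 and 4.00 CPM with IL-1beta at 4 h against 8.53, 5.47 and 7.11 in controls, and 116, 112 and 117 against 4.70, 2.40 and 2.60 at 72 h. The low and then high treated libraries gave effects of -0.84 ± 0.22 and 5.14 ± 0.22 (difference 5.98 ± 0.32, edgeR adjusted p 2.1e-16). Sema3g, a guidance molecule, had -0.75 ± 0.17 and 3.32 ± 0.19, and Gstt1, a glutathione transferase, -0.85 ± 0.20 and 3.12 ± 0.16. Ahsg, fetuin-A, a circulating inhibitor of calcification, reached its reversal through the controls. They fell from 28.5, 18.9 and 21.8 to 0.73, 0.56 and 0.37 CPM, while treated tissue went from 12.6, 11.6 and 11.9 to 8.25, 9.52 and 7.07, which was not a called change (-0.53 log2).

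Targets of HIF, the oxygen-sensitive factor that low oxygen stabilizes, dipped and then rose. Of 17 outside glycolysis, 14 had a higher effect at 72 h and 1, P4ha1, a collagen prolyl hydroxylase, a lower one (-0.44 ± 0.10). The shares of all genes were 15.7% and 15%. All 17 were called lower at 12 h and 16 at 24 h, against 15% and 15.6% of all genes. At 72 h 12 were called higher, against 19.3%. Bnip3, a mitophagy receptor, read 19.4, 19.3 and 18.8 CPM with IL-1beta at 4 h against 28.2, 31.3 and 28.7, then 8.11, 8.99 and 7.97 against 38.6, 40.9 and 34.5 at 12 h, and 71.4, 64.5 and 68.2 against 49.6, 42.0 and 43.3 at 72 h. Treated libraries were below all controls at the first 2 times and above them at the last (difference 1.21 ± 0.14). Ankrd37, a small ankyrin protein, had effects of -0.91 ± 0.21, -2.92 ± 0.30 at 12 h and 1.00 ± 0.21 at 72 h, and Apln, the peptide apelin, -0.65 ± 0.16, -2.71 ± 0.20 and 2.04 ± 0.16. Vegfa, the vascular growth factor, had -0.44 ± 0.10, -1.69 ± 0.11 and 0.98 ± 0.10.

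Glycolysis followed a similar course. Of 20 genes 12 had a higher effect at 72 h and 1, Pfkfb4, a lower one, against 15.7% and 15% of all genes. At 12 h 18 were called lower than control, against 15% of all genes. Ldha, lactate dehydrogenase A, with IL-1beta read 539, 555 and 568 CPM at 4 h, fell to 270, 265 and 269 at 12 h and reached 1228, 1127 and 1140 at 72 h, against 532, 576 and 502, then 616, 585 and 665, then 578, 597 and 668 in controls. With all 39 mRNA columns in the fit the 14 HIF targets became 8 and the 12 glycolysis genes 2.

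The promoters of Bnip3 and Ankrd37 are printed because both genes turned from lower to higher and carry several HIF core motifs. They lie at chr7:138909507-138909756 and chr8:45999851-46000100 (both minus strand, 250 bases before the start in the same table), the start of Ankrd37 lying within its annotated span (45996908 to 46000414), and capitals mark ACGTG or GCGTG on either strand, where matches may overlap.
Bnip3: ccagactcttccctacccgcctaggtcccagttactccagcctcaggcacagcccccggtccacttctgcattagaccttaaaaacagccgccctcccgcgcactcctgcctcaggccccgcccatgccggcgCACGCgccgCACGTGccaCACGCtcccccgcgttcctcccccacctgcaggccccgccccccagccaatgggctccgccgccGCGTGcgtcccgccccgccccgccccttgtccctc
Ankrd37: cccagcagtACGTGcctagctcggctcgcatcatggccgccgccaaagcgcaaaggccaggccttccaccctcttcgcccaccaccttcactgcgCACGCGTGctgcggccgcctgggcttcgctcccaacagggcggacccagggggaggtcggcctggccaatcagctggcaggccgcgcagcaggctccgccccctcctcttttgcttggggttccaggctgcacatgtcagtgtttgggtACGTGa
Bnip3 holds 5 matches and Ankrd37 holds 4. This short motif is common. In the whole promoter window, with the short stretch after the start, it was in 11 of 14 promoters on the HIF list (78.6%). It was in 14 of 19 on the glycolysis list (73.7%) and in 60.6% of all tested genes with a promoter.

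Transient falls were of moderate size. Adamts15, a proteoglycan-cutting protease, read 0.69, 0.62 and 0.71 CPM with IL-1beta at 4 h against 5.40, 1.97 and 3.37, and 2.71, 4.02 and 3.04 against 3.91, 2.59 and 1.61 at 72 h. The groups were separate and then overlapped, with effects of -2.49 ± 0.36 and 0.25 ± 0.31. Eepd1, Aspa and Fsbp, in order of size, differed by 2.32 ± 0.28, 2.23 ± 0.37 and 2.21 ± 0.48. Adm, the vasodilator adrenomedullin and a HIF target, had -1.17 ± 0.20 at 4 h, -1.69 at 24 h and 0.16 ± 0.19 at 72 h.

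Antioxidant targets of NRF2 peaked between the ends of the contrast. Of 17, 6 had a higher and 7 a lower effect at 72 h, against 15.7% and 15% of all genes. At 12 h 16 were called higher, against 14.5% of all genes, with a median effect of 1.60. Slc7a11, the cystine importer, with IL-1beta read 244, 236 and 232 CPM at 4 h, reached 473, 448 and 397 at 12 h and ended at 36.3, 28.4 and 26.7 at 72 h, while its controls lay between 12.3 and 26.0 throughout (difference -2.16 ± 0.17). Hmox1, heme oxygenase 1, had effects of 0.68 ± 0.10 at 4 h, 3.66 ± 0.11 at 12 h and -0.32 ± 0.11 at 72 h. The 72 h minus 4 h contrast does not see that peak.

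Interferon response genes differed widely between replicates. Of 28, 2 had a lower effect at 72 h, Ifit2 and Rsad2, and 0 a higher one. Both counts lay below the shares of all genes, 15% and 15.7%. The 2 became 10 without the low-count filter and 4 with only the 12 libraries. In controls, 11 of the 28 were called higher at 72 h than at 4 h and 0 lower (median 1.02), against 19.5% of all genes in each direction. Rsad2, viperin, read 2.12, 28.1 and 6.82 CPM with IL-1beta at 4 h and 2.47, 0.83 and 0.34 at 72 h, and lost its call without IL-1beta 4 h replicate b (-3.94, edgeR adjusted p 0.077) or without control 72 h replicate c (-5.05, edgeR adjusted p 0.074). The first value of the 72 h group is the highest there. Without that library, IL-1beta 72 h replicate a, the count of genes with a lower effect went from 2 to 11. Ifit1 shows the same spread, with 63.2, 3.05 and 7.84 CPM with IL-1beta at 72 h.

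**Figure D5:**
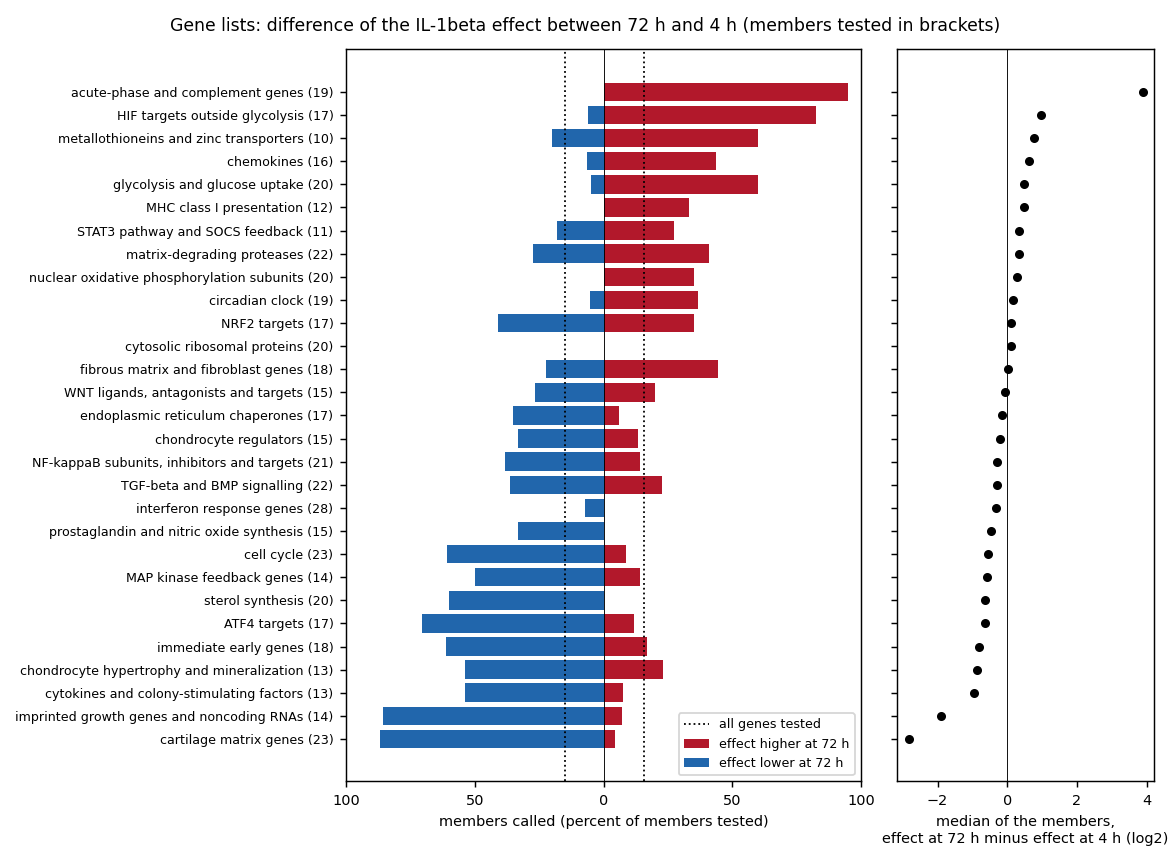
Bars give the percentage of tested members of each of 29 gene lists whose IL-1beta effect was called higher (right) or lower (left) at 72 h than at 4 h, and dots the median difference (log2). Dotted lines are the shares over all genes tested, 15.7% and 15%. Acute-phase genes (18 of 19 higher) and cartilage matrix genes (20 of 23 lower) lie at the ends, and cytosolic ribosomal proteins had no call in 20.

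Counts on the remaining pathway lists were as follows: cytosolic ribosomal proteins (0 of 20 in either direction), nuclear oxidative phosphorylation subunits (7 of 20 higher, 0 lower), endoplasmic reticulum chaperones (1 higher, 6 lower of 17), TGF-beta and BMP signalling (5 higher, 8 lower of 22), WNT genes (3 higher, 4 lower of 15), MAP kinase feedback (2 higher, 7 lower of 14), STAT3 and SOCS genes (3 higher, 2 lower of 11) and the circadian clock (7 higher, 1 lower of 19). Over all genes tested 15.7% were higher and 15% lower. The 5 higher TGF-beta and BMP genes became 3 without IL-1beta 4 h replicate c. The 1 higher chaperone became 0 or 2 when any 1 of 9 libraries was left out, and the 1 lower clock gene when any 1 of 6 was. At an unadjusted edgeR p under 0.05, 2 ribosomal proteins were lower and 0 higher, and DESeq2 called 0. Of the other counts of 0 in one direction on the pathway lists, the same was 1 for sterol genes and 0 for the rest, and 0 with DESeq2. Without the low-count filter the higher count was 1 for sterol genes and 1 for prostaglandin and nitric oxide genes. For sterol genes it was also 1 with library totals. The same held without control 4 h replicate c, IL-1beta 4 h replicate b, control 72 h replicate c or IL-1beta 72 h replicate b. Fibrous matrix and fibroblast genes had 8 of 18 higher and 4 lower, led by Fap, a protease of activated fibroblasts (2.53 ± 0.19), and Lum, lumican (1.46 ± 0.15). With all 39 mRNA columns in the fit the 8 became 3 and the 4 became 0. The 4 became 7 without the low-count filter or with only the 12 libraries. Of 10 metallothioneins and zinc transporters 6 were higher and 2 lower. Mt1 and Mt2, zinc-binding proteins with similar sequences, differed by 1.10 ± 0.25 and 1.33 ± 0.31.

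Markers of other cell types moved between the groups as well. The sum of 10 leukocyte markers was 38.3 to 60.7 CPM with IL-1beta at 4 h and 51.2 to 56.5 at 72 h, against 39.6 to 41.9 and 33.7 to 39.1 in controls. Within it Lyz2, lysozyme, rose late (1.67 ± 0.43) and Cd68, a lysosomal protein of macrophages, fell (-1.05 ± 0.23). Ptprc, the pan-leukocyte antigen, stayed at 26 counts or fewer in each group, and Cd3e had 0 counts in the 4 h groups. Osteoblast markers summed to 37.3 to 47.0 CPM in 72 h controls and 7.66 to 9.81 with IL-1beta, and 2 of the 6, Ibsp and Dmp1, are named above. Phex, an enzyme of phosphate balance and mineralization, had a higher effect at 72 h (0.87 ± 0.25), with 3.49, 4.39 and 4.16 CPM with IL-1beta against 3.18, 2.35 and 1.73. Adipocyte markers summed to 720 to 731 CPM with IL-1beta at 72 h and 292 to 426 in controls. Most of that sum was Fabp4, at 651 to 665 CPM against 256 to 365. Against control of the same time, 5 of the 7 were called lower at 4 h and 1 higher (17.2% and 15.5% of all genes). At 72 h 3 were called higher and 0 lower (19.3% and 19.7%). The effect was higher at 72 h than at 4 h for 6 of 7, against 15.7% of all genes. That count was 3 with DESeq2 and without control 4 h replicate a, IL-1beta 4 h replicate a, IL-1beta 4 h replicate b or control 72 h replicate b. Plin1, which coats fat droplets, turned from -1.07 ± 0.30 to 1.35 ± 0.30. Epithelial markers summed to 0.78 to 6.38 CPM in 4 h controls (median 0.96), the highest being replicate a. There Krt8, a keratin, read 2.59 CPM against 0.17 and 0.15 in replicates b and c. The part of other cell types in the late rises was not tested.

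Because the contrast subtracts 2 controls, a difference can arise in untreated tissue. Of the 468 late rises, controls moved more than treated tissue in 98. From 4 h to 72 h, 174 had a called fall in controls and 35 a called rise. Over all genes tested, 19.5% were called in each direction between the controls. Of the 609 late falls, controls moved more in 101. A called rise in controls was found in 208, among them Matn1, Frzb and Omd, and a called fall in 168. Controls moved more than treated tissue in 7 of the 94 transient rises, and in 7 of 83 and 6 of 139 reversed genes.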

How the data were processed

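Messenger RNA of 39 samples was sequenced after ribosomal RNA removal, per the labels' protocols, and the authors deposited 1 table of whole-number counts per gene. Per the submitters' processing notes, Trimmomatic, cutadapt, STAR, featureCounts and the build mm10 were used, and the strand setting is not given in the sources used here, so overlapping antisense genes may share counts. The table's 2199 lines without a gene name were left out, leaving 52459 named genes.

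The column labelled control 0 h replicate b correlated at 0.189 or less with the others and was left out, except in one alternative. edgeR 4.0.16 (R 4.3.3) fitted the other 38 libraries with a coefficient for each group, TMM scaling (factors 0.864 to 1.12) and the quasi-likelihood F test, after filterByExpr had kept 18857 genes with 99.905% of the counts. The common biological coefficient of variation was 8.26%. P-values were adjusted by the Benjamini-Hochberg method over all tested genes, and standard errors are the log2 fold change divided by the root of F. Depth was 13919485 to 68655350 counts, and intervals on counts cover counting error only. On simulated data of the same layout the fit was checked for recovery of known changes.

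Genes were named by rule: the 5 of each class with the largest difference and a mean of at least 1 CPM (fewer for strengthened and weakened genes), and the 4 of smallest p on each list. Further members were named for contrast after their values were seen, and some genes are not reported here. The members and lists were chosen with earlier results of these data known. Promoters are RefSeq windows (GRCm38.p6), found for 11853 tested genes. Alternatives were other scalings, no filter, DESeq2 1.42.0, only the 12 libraries, all 39 columns, a replicate block, other size limits and leaving out each library. Small RNA libraries were not used here. Replicate letters were not used as pairs in the main fit. The 18 same-letter pairs had correlations of deviations of -0.302 to 0.179 (median -0.014), and the 36 other-letter pairs -0.239 to 0.349 (median 0.03). With 3 libraries in a group, these values cannot show whether a letter marks a shared culture.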

Additional observations from a re-analysis of the deposited data

Results flagged for a closer look

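The effect of IL-1beta differed between 72 h and 4 h by a test of the difference itself for 2952 genes that were higher and 2823 that were lower at 72 h. Among the reversed genes named by rule, the difference (log2) was -4.694 for Ibsp, -4.321 for Nptx1, a neuronal pentraxin, -3.3 for Sh2d5, -3.22 for Dlk1 and -3.157 for H2-Aa, a class II histocompatibility chain. In the other direction it was 5.979 for Fmo1, 5.21 for Traf3ip3, 4.799 for Ahsg, 4.065 for Sema3g and 3.974 for Gstt1. Beyond leaving out each library in turn, groups of 3 libraries were not searched by a rule for single outlying samples.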

How the results depend on the processing

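Leaving out each library in turn kept all 16 counts over all genes within 1.5 times: 2320 to 2822 genes higher and 2504 to 3029 lower at 72 h, 4610 to 6163 called at 4 h, 4712 to 5058 at 12 h, 5181 to 5455 at 24 h, 6386 to 7400 at 72 h, 6155 to 7462 between controls and 9899 to 11062 between treated groups. The classes ranged from 78 to 113 (transient rise), 85 to 113 (transient fall), 423 to 501 (late rise), 550 to 628 (late fall), 66 to 88 and 97 to 160 (reversed to lower and to higher), 22 to 29 (strengthened) and 4 to 9 (weakened). With all 39 columns in the fit, the counts were 1356 higher and 1173 lower, 2848 at 4 h, 2722 at 12 h, 3029 at 24 h, 4284 at 72 h, 3555 between controls, 52 and 91 reversed and 62 transient falls. That column correlated at 0.189 or less with the others, and with it abundant genes such as Col2a1, Comp, Hapln1, Igf2, Fth1 and B2m kept their direction but lost the call. A minimum difference of 2 log2 left 33 and 54 reversed genes, 36 transient rises, 30 transient falls, 176 late rises, 209 late falls, 3 strengthened and 1 weakened, and a minimum of 0.5 gave 135 strengthened and 43 weakened. Weakened genes were 12 without the filter, 10 with only the libraries compared and 11 with DESeq2. The replicate letter as a block gave 2917 higher and 2783 lower genes. For genes at a few counts, such as Slc26a9, depth limits the precision of any fold.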

Other observations

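Tissue given 20 ng/mL TNF-alpha, compared with the same controls, had other values for several of these genes. Hp had a TNF-alpha effect of -1.0 (log2) at 4 h and 0.51 at 72 h, and Lcn2 had -0.76 and -0.69, where IL-1beta gave 4.51 and 4.79 at 72 h. Bnip3 had -0.40 and -2.14 and Ankrd37 had -0.52 and -3.03 with TNF-alpha, where IL-1beta gave 0.60 and 1.0 at 72 h. Mmp3, by contrast, had 2.32 and 5.71 with TNF-alpha and 3.01 and 6.12 with IL-1beta. Differences between the cytokines, which were given at different doses, were not tested.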
